A study of Rattus norvegicus with 9 samples.

Results

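The genes described here build the cardiomyocyte Z-disc and thin filament, its calcium store and its energy supply, without the myosins and troponins. A list of 36 such genes was matched to the gene symbols of the deposited count table, and 35 of its 17337 genes were members, the exception being Xirp1. The libraries came from cultured cardiac fibroblasts of Sprague Dawley rats, with 3 libraries from fetal cells of embryonic day 18, 3 from neonatal cells of postnatal day 1 and 3 from adult cells of animals aged 7 weeks. All 9 cultures were passage 0 isolates grown to confluency in medium with fetal bovine serum and ascorbic acid, and the labels name no sorting step and no number of animals. Nothing in the labels says that the libraries of an age came from separate cultures, so the p-values measure only the spread between these libraries, which may be technical.

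In a cardiomyocyte, actin thin filaments are anchored in the Z-disc by alpha-actinin, and scaffold, stretch-sensing and chaperone proteins gather around that anchor. Calcium for each beat leaves the sarcoplasmic reticulum through the ryanodine receptor, is held inside it by calsequestrin and is pumped back by SERCA2, which phospholamban and sarcolipin restrain. Myoglobin, creatine kinases and a fatty acid carrier supply oxygen, phosphate energy and fuel. Fibroblasts do not build sarcomeres, so most of these transcripts serve as markers of cardiomyocytes or skeletal muscle cells in such cultures. Several members, among them Casq1, Sln and Sh3bgr, are genes of skeletal muscle too. SERCA2, Pdlim5, nexilin and desmin are also made by other cells. RNA was measured in bulk, and fewer cells of a type and less RNA per cell cannot be told apart.

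Library totals ran from 13392825 to 22850491 assigned counts, and the adult libraries were the shallowest. Fibroblast markers were present at every age: all 10 had counts in every library, although Col1a2 was listed at only 1 to 21 counts. Fetal replicate 3 stood apart from the other fetal libraries in the summed level of 15 skeletal muscle markers, which was 238 CPM (counts per 1000000, scaled by TMM) against 46.2 and 48.3 CPM. The 10 fibroblast markers summed to 23645 CPM in that library and to 50417 and 47639 CPM in the other two. Their sum was higher in the neonatal libraries, at 67900.2 to 74164 CPM, and was 22227 to 29810.2 CPM in the adult libraries. Between fetal and neonatal cells 4 of these 10 were called higher and 0 lower, beside 18.3% and 18.0% of all genes. The 6 atrial markers, among them Sln and the reference genes Myl4 and Myl7, summed to 1839 CPM in fetal replicate 3, against 3818 and 3962 CPM in the other fetal and 1877 to 2095 CPM in the neonatal libraries. The 10 macrophage markers summed to 14.7 to 68.7 CPM in fetal, 158.5 to 175 CPM in neonatal and 3980 to 5654 CPM in adult libraries. Of the skeletal markers, 11 or 12 had over 3 counts in each fetal library and 6 or 7 in each neonatal and adult library. The part of these cell mixtures in the members' levels was not tested.

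Together the members made up 7506 ± 462 CPM in fetal (SD, n = 3), 4350.0 ± 152 CPM in neonatal and 651 ± 15.1 CPM in adult cultures. Between fetal and neonatal cells, 27 of the 35 members fell and none rose, with 5 that did not pass the test (Myom2, Nexn, Pdlim5, Hrc and Sgca) and 3 not tested for low counts (Lmod2, Myot and Ckmt2). The test was edgeR's quasi-likelihood test at an adjusted p under 0.05, which called 36.3% of all 11337 genes tested, 18.0% lower and 18.3% higher. Without fetal replicate 3, 27 were lower and 1, Myom2, was higher, by edgeR and by DESeq2. At an unadjusted p under 0.05 no member was higher either, and DESeq2 also called none higher. The median log2 difference was -0.92 over the 32 tested members and -0.01 over all genes tested. All 3 neonatal libraries lay below all 3 fetal libraries for 30 of the 35 members, and above them for 1, Myom2; over all genes these shares were 28.1% and 29.2%. In the adult cells most members were near 0. All 32 tested members were lower in adult than in fetal and than in neonatal cells, with median fitted log2 differences of -7.13 and -6.24. For 6 of these 32 every adult library was at 0, and with those set to their lower bound the medians were -6.13 and -5.60. No adult library reached any fetal or any neonatal library for 33 of the 35 members, where 35.8% and 38.5% of all genes were lower in this way and 35.9% and 37.6% higher. Of all genes, 70.5% were called between adult and fetal, 35.5% lower, and 63.5% between adult and neonatal, 31.8% lower. These 3 comparisons share libraries and are not independent of each other.

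**Figure D1:**
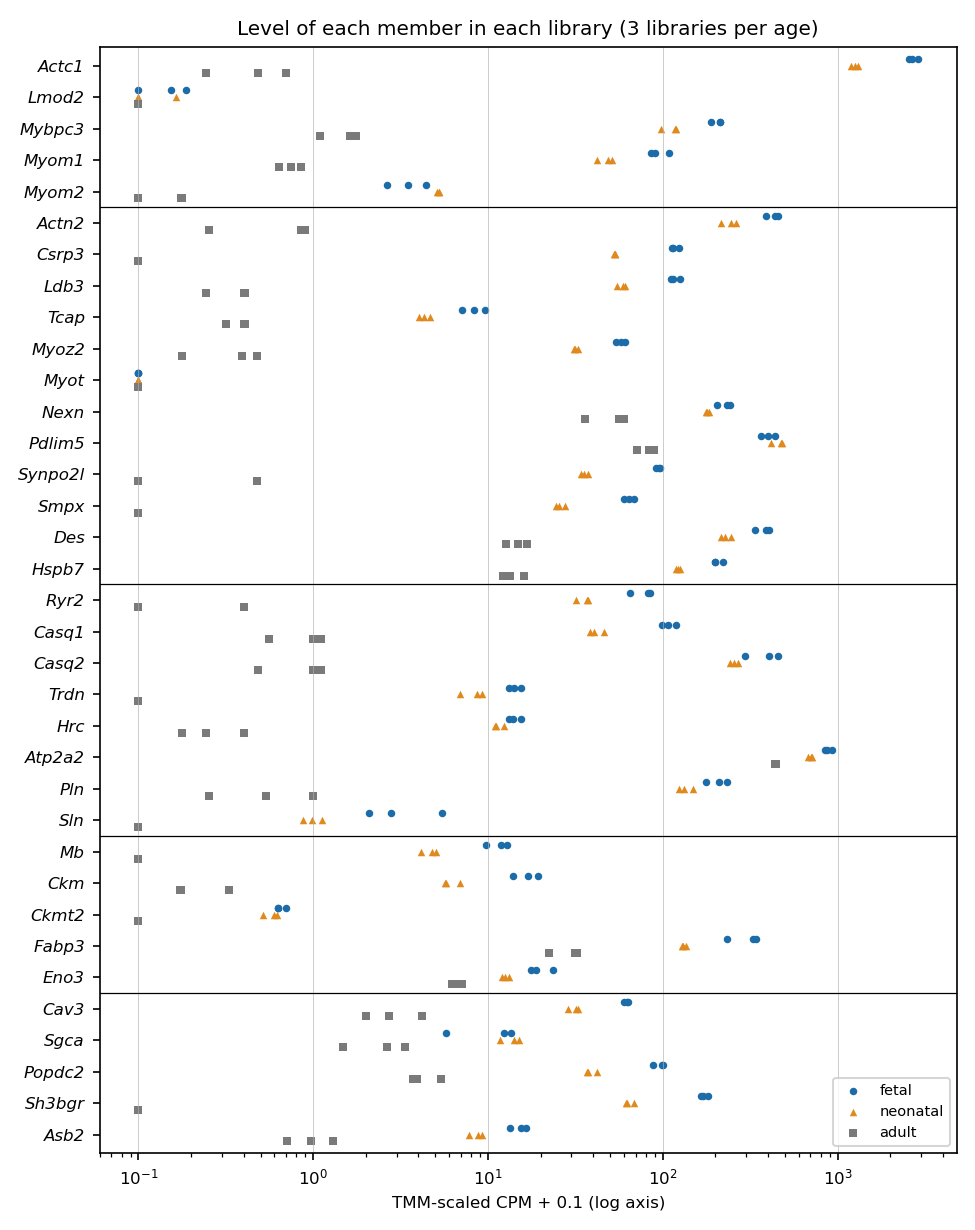
Level of each of the 35 members in each library, on a log axis of TMM-scaled CPM with 0.1 added, grouped by role from thin filament and M-band genes at the top to membrane and other genes at the bottom; every point is 1 library, 3 per age. Neonatal points lie to the left of the fetal points for most genes, while adult points spread from 0 counts (drawn at 0.1) to 444 CPM for Atp2a2.

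Promoter windows show what sequence the members have in common beside their levels, and 6 of them are printed for the motifs of muscle regulators they hold. RefSeq windows of 300 bases, from 250 before to 50 after the annotated start on assembly GRCr8, were at hand for 29 of the 35 members (all but Sln, Myom2, Myot, Sh3bgr, Tcap and Csrp3). Capitals mark a CArG box, the motif of serum response factor, in Actc1 and Ldb3 and a MEF2 motif in Mybpc3, Myoz2, Smpx and Casq2. The windows are chr3:121271778-121272077 (minus strand) for Actc1, chr16:9924630-9924929 (minus strand) for Ldb3, chr3:97550811-97551110 (plus strand) for Mybpc3, chr2:213852729-213853028 (minus strand) for Myoz2, chrX:41107088-41107387 (minus strand) for Smpx and chr2:192214306-192214605 (plus strand) for Casq2, each written 5′ to 3′ on the gene's strand.
Actc1: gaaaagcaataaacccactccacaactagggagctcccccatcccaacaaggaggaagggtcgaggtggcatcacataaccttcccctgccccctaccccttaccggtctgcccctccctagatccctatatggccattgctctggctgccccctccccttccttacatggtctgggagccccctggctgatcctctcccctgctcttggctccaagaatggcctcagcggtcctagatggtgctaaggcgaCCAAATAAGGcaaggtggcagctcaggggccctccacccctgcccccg
Ldb3: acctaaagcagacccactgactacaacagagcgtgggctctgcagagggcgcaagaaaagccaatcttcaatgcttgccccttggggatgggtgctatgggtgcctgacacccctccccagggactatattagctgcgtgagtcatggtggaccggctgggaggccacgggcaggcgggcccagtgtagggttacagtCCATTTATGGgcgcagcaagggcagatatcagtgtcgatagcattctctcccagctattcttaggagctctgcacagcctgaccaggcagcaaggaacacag
Mybpc3: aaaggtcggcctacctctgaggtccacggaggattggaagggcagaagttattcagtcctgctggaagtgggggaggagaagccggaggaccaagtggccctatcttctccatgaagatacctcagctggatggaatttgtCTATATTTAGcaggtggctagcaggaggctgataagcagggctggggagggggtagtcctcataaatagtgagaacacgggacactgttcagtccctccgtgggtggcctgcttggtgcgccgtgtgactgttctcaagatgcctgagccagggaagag
Myoz2: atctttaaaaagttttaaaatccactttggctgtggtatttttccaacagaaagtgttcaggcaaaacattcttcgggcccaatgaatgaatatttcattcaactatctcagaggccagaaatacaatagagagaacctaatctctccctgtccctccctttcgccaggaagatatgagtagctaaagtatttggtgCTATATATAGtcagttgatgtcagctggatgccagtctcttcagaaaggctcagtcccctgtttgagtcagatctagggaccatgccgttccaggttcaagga
Smpx: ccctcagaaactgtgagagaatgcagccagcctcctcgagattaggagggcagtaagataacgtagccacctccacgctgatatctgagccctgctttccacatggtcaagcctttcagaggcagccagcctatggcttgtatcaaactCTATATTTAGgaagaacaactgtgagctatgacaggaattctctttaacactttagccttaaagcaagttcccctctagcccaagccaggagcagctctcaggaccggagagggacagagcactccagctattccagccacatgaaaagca
Casq2: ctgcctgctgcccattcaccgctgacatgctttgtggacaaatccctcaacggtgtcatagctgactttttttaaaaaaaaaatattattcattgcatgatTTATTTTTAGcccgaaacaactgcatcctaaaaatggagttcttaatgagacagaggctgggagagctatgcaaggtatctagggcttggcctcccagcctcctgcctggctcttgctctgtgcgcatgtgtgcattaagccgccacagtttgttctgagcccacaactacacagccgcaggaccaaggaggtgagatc

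Counted from the annotated start as 0, the capitals begin at position 2 in Actc1, -52 in Ldb3, -109 in Mybpc3, -53 in Myoz2, -101 in Smpx and -149 in Casq2. A MEF2 motif was found in 7 of the 29 member windows, or 24.1%, and in 3.29% of all 33469 windows of that length. Its holders beside the 4 printed were Cav3, Hspb7 and Synpo2l. The E-box CAGCTG, a motif of muscle bHLH factors, was in 14 member windows, or 48.3%, and in 15.1% of all windows. A CArG box was in 2 member windows, or 6.9%, and in 1.64% of all. GATAA was in 27.6% of member and 26.5% of all windows, CATTCC in 13.8% and 14.2%, and TATAAA in 6.9% and 14.2%. Both strands were searched, and matches of different motifs overlapped in 0 member windows. The members were listed for their muscle roles, so these shares are a description with no test, and a match is not a site.

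Actc1, the cardiac actin of the thin filament, was the member with the most reads per length in fetal cells, at 1822 ± 107 CPM per kilobase of exon, and lies at chr3:105507403-105512939 on assembly rn6. Its levels were 2678, 2887 and 2574 CPM in the fetal, 1191, 1265 and 1310.2 CPM in the neonatal and 0.382, 0.144 and 0.599 CPM in the adult libraries. The ages did not overlap, and neonatal levels were 2.16-fold below fetal ones (log2 difference -1.11 ± 0.13, here and below with its standard error; adjusted p = 0.00036, edgeR). The adult level was 0.0138% of the fetal mean (log2 difference -12.80 ± 0.24, adjusted p = 6.94e-10). Its coding sequence is close to that of other actins, and how such reads were shared was not tested. Mybpc3, which cross-links myosin in the A-band, had 189.6, 211 and 212 CPM in the fetal, 97, 117 and 119 CPM in the neonatal and 0.994, 1.52 and 1.65 CPM in the adult libraries. It fell 1.84-fold from fetal to neonatal cells (-0.88 ± 0.11, adjusted p = 0.000404, no overlap) and kept 0.678% of its fetal mean in adult cells. The M-band is represented by both myomesin genes of the list. Myom1, which ties thick filaments together at the M-band, was at 85.2, 108 and 90.2 CPM in the fetal, 42, 48.5 and 50.8 CPM in the neonatal and 0.535, 0.65 and 0.749 CPM in the adult libraries, and neonatal libraries all lay below fetal ones (-1.004 ± 0.11, adjusted p = 0.000202). Myom2, the M-band protein of mature fast and cardiac fibres, was at 2.54, 3.39 and 4.3 CPM in the fetal, 5.12, 5.16 and 4.98 CPM in the neonatal and 0.0765, 0 and 0.0749 CPM in the adult libraries. All neonatal libraries were above all fetal libraries for Myom2, by 0.58 ± 0.26 on the log2 scale, but the test was not passed (adjusted p = 0.111). Without fetal replicate 3, the highest fetal library for this gene, the difference was 0.77 and passed (adjusted p = 0.0162). In adult cells Myom2 held at most 1 count a library, and the ratio of fetal to adult CPM was 68.8 (95% exact interval 18.8 to 572, counting error only). Lmod2, a nucleator of thin filaments, had 0 to 2 counts in every library and allows no comparison.

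Among the 12 Z-disc and cytoskeletal members in the table, 9 of the 11 tested fell from fetal to neonatal cells, beside 18.0% of all genes. All 11 were lower in adult cells, where 35.5% of all genes were lower than in fetal and 31.8% lower than in neonatal cells. Actn2, the alpha-actinin that cross-links actin at the Z-disc, was at 389, 458 and 439.6 CPM in the fetal, 214, 245 and 261 CPM in the neonatal and 0.153, 0.794 and 0.749 CPM in the adult libraries. It fell 1.79-fold (-0.84 ± 0.16, adjusted p = 0.00351), with no overlap between ages. Its partners in the Z-disc lattice were called lower as well. The log2 differences were -1.13 ± 0.07 for Csrp3 (muscle LIM protein), -1.01 ± 0.08 for Ldb3 (cypher, with the CArG box at -52), -0.96 ± 0.18 for Tcap (telethonin) and -0.85 ± 0.11 for Myoz2 (calsarcin), with adjusted p from 5.07e-05 to 0.00329. Csrp3 was at 114, 113 and 123 CPM in fetal libraries, and no adult library held a count of it, which puts it at least 522-fold lower when the floor is set at 3 counts per adult library, as it is for every such bound here. The largest falls of this group to the neonatal age were those of Synpo2l, an actin-binding Z-disc protein, and Smpx, a small stretch-responsive protein. Synpo2l was at 95.8, 94.9 and 91.8 CPM in the fetal, 35.4, 34 and 37.2 CPM in the neonatal and 0, 0 and 0.374 CPM in the adult libraries and it fell 2.65-fold (-1.41 ± 0.17, adjusted p = 0.000431). Smpx was at 59.9, 64.1 and 68.4 CPM in the fetal, 25.5, 24.4 and 27.5 CPM in the neonatal and 0 counts in each of the adult libraries and it fell 2.49-fold (-1.31 ± 0.09, adjusted p = 8.87e-05). Neither gene's fetal and neonatal libraries overlapped. Myot (myotilin) was listed at 0 in all 9 libraries, and its exons lie on chromosomes 18 and 9 in the annotation used for counting.

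Some members of the Z-disc group were still at 12.1 CPM or more in every adult library, though below all their fetal libraries. Pdlim5, a PDZ-LIM scaffold that binds alpha-actinin and is made in many cell types, was at 402, 436 and 366 CPM in the fetal, 478, 474 and 417 CPM in the neonatal and 71.2, 89.5 and 83.8 CPM in the adult libraries. Fetal and neonatal libraries overlapped (0.18 ± 0.10, adjusted p = 0.185), and the adult libraries were 4.92-fold below the fetal ones (-2.30 ± 0.11, adjusted p = 1.5e-07). Nexn (nexilin), an actin-binding protein of Z-discs and of smooth muscle, was at 204, 233 and 243 CPM in the fetal, 179, 184 and 176 CPM in the neonatal and 35.6, 59.9 and 55.8 CPM in the adult libraries. Every neonatal library was below every fetal one, but the difference of -0.33 ± 0.16 did not pass the test (adjusted p = 0.132); in the fit of fetal and neonatal libraries alone it did (adjusted p = 0.0189). Des (desmin), the intermediate filament around the Z-disc, was at 388, 404 and 338 CPM in the fetal, 215, 226 and 246 CPM in the neonatal and 16.5, 14.7 and 12.6 CPM in the adult libraries. It fell 1.65-fold by the neonatal age (-0.72 ± 0.10, adjusted p = 0.00105) and 25.8-fold by the adult age (-4.69 ± 0.12, adjusted p = 4.91e-09), with no overlap. Hspb7, a small heat shock protein of muscle, was at 199, 221 and 199.7 CPM in the fetal, 118, 122 and 125 CPM in the neonatal and 16, 12.1 and 13.2 CPM in the adult libraries, a fall of 1.7-fold to the neonatal (-0.76 ± 0.09, adjusted p = 0.000361) and 15-fold to the adult age. Pdlim5, Nexn, Des and Hspb7 thus kept 20.3%, 22.3%, 3.87% and 6.67% of their fetal means in adult cells. The other 7 tested Z-disc members kept at most 3.34% (Tcap). Des and Tcap were close on this scale, and Tcap had only 3 or 4 counts in each adult library. Nexn and Des are made by smooth muscle too, and all 11 smooth muscle and mural markers had over 3 counts in every library. These markers summed to 10915 to 14357 CPM in fetal, 16413 to 17155 CPM in neonatal and 5040.0 to 9243 CPM in adult libraries; their part in the adult levels was not tested.

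All 8 calcium handling members were in the table and tested, and 7 fell from fetal to neonatal cells, beside 18.0% of all genes. The exception, Hrc, also had every neonatal library below every fetal one, as did 28.1% of all genes. Levels per kilobase of annotated exon compare genes only roughly, since lengths ran from 298 bases (Sln) to 16285 (Ryr2) and isoform use was not corrected for. On this scale Casq2 stood at 157 ± 33.5 and Atp2a2 at 155 ± 7.41 CPM in fetal cells. Pln followed at 91.5 ± 12.2 and Casq1 at 58.6 ± 5.15 CPM per kilobase. Sln, Hrc, Ryr2 and Trdn were far lower, at 11.2 ± 5.97, 5.97 ± 0.481, 4.73 ± 0.637 and 3.34 ± 0.277 CPM per kilobase. The libraries of Casq2 and Atp2a2 overlapped, whereas those of the other neighbours in this order, Sln and Hrc included, did not. Sln exceeded Hrc by less than its own SD, with 18 CPM per kilobase in fetal replicate 3 against 6.7 and 9.02 in the other fetal libraries. In neonatal cells the order began with Atp2a2 at 123 ± 3.25 and Casq2 at 104 ± 5.66 CPM per kilobase, which no longer overlapped. Pln (59.9 ± 5.37), Casq1 (22.4 ± 2.28), Hrc (4.81 ± 0.313), Sln (3 ± 0.414), Ryr2 (2.17 ± 0.191) and Trdn (1.94 ± 0.284) followed, and of these neighbours only Ryr2 and Trdn overlapped. In adult cells Atp2a2 stood alone at 77.1 ± 0.708, and Casq1, the next, was at 0.427 ± 0.158 CPM per kilobase.

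**Figure D2:**
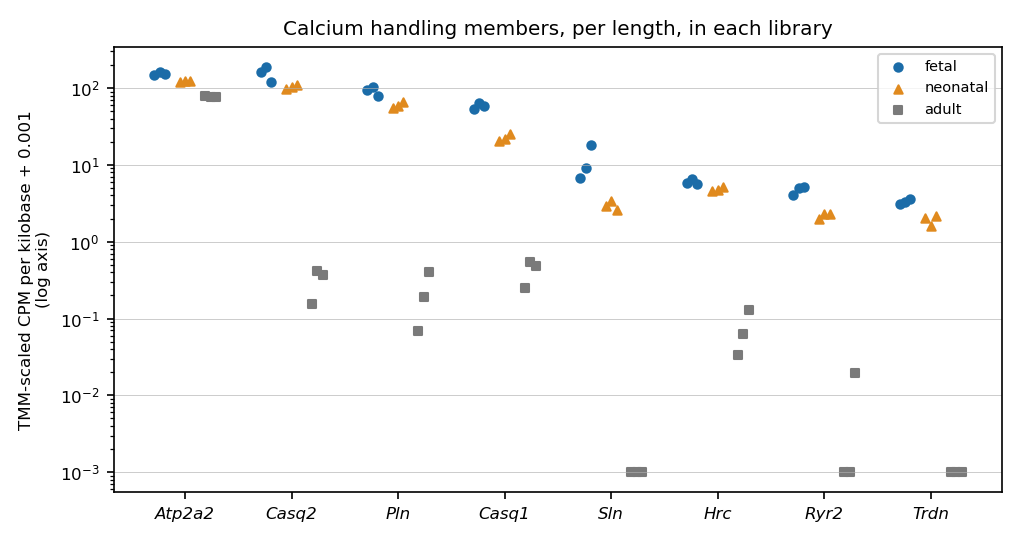
TMM-scaled CPM per kilobase of exon for the 8 calcium handling members, on a log axis with 0.001 added; each point is 1 library, 3 per age. Atp2a2 keeps 49.8% of its fetal mean in the adult libraries, while Sln and Trdn have 0 counts there (drawn at 0.001).

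Atp2a2 encodes SERCA2, the pump that refills the calcium store, and has a housekeeping form in most cell types; the gene lies at chr12:39553903-39603326 (rn6), and the counts do not separate its isoforms. It was at 842, 926 and 875 CPM in the fetal, 677, 709 and 709.8 CPM in the neonatal and 444, 437 and 436 CPM in the adult libraries. The 3 ages were ordered without overlap, 1.26-fold from fetal to neonatal (-0.33 ± 0.06, adjusted p = 0.00425) and 1.59-fold from neonatal to adult (-0.67 ± 0.06, adjusted p = 2.08e-05). The adult libraries kept 49.8% of the fetal mean. Pln, the phospholamban that restrains the pump, was at 210.3, 232 and 177 CPM in the fetal, 124, 133 and 148 CPM in the neonatal and 0.153, 0.433 and 0.898 CPM in the adult libraries, with 0.24% of its fetal mean left. Its neonatal minus fetal difference was -0.61 ± 0.16 (adjusted p = 0.0183), without overlap. Sln, sarcolipin, an atrial and skeletal muscle inhibitor of the pump, was at 2, 2.69 and 5.36 CPM in the fetal, 0.88, 1.02 and 0.776 CPM in the neonatal and 0 counts in each of the adult libraries. Fetal replicate 3, the library high in skeletal muscle markers, was the highest for Sln. Sln fell by 1.89 ± 0.44 on the log2 scale to the neonatal age (adjusted p = 0.0145) and in adult cells was at least 15-fold below fetal ones.

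Casq2, the cardiac calsequestrin (rn6 chr2:204512361-204568643), whose promoter window held a MEF2 motif, was at 403, 459 and 297 CPM in the fetal, 241, 256 and 269 CPM in the neonatal and 0.382, 1.01 and 0.898 CPM in the adult libraries. Fetal replicate 3 was the lowest fetal library, and no neonatal library reached it; the difference was -0.60 ± 0.17 (adjusted p = 0.0216). Casq1, the skeletal muscle calsequestrin, was at 99.4, 118 and 107 CPM in the fetal, 38.1, 40.1 and 46.2 CPM in the neonatal and 0.459, 1.01 and 0.898 CPM in the adult libraries, and here fetal replicate 3 lay between the other two. It fell 2.62-fold (-1.39 ± 0.12, adjusted p = 7.3e-05), against 1.51-fold for Casq2; the difference between the falls was not tested. Hrc, a calcium-binding protein of the store, was at 13.8, 15.4 and 13.2 CPM in the fetal, 10.9, 11 and 12.2 CPM in the neonatal and 0.0765, 0.144 and 0.299 CPM in the adult libraries, a difference of -0.31 ± 0.16 that did not pass (adjusted p = 0.149). Ryr2, the release channel, was at 65.2, 81.7 and 84.4 CPM in the fetal, 31.7, 36.9 and 37.3 CPM in the neonatal and 0, 0 and 0.299 CPM in the adult libraries, and it fell by 1.13 ± 0.18 on the log2 scale (adjusted p = 0.00187). Trdn (triadin), which links calsequestrin to the channel, fell by 0.79 ± 0.16 (adjusted p = 0.0097) and had 0 counts in the adult libraries, at least 63.2-fold lower. The calls for Casq2, Pln and Sln depended on single libraries. Casq2 lost its call without fetal replicate 1 or 2 or any 1 neonatal library (adjusted p 0.054 to 0.0883). Pln lost it without fetal replicate 2 (0.0548) or neonatal replicate 1 (0.0869) or 2 (0.0769), and Sln without any 1 neonatal library (0.0509 to 0.0625). The adult values of Ryr2 rest on adult replicate 3, the only adult library with a count, and those of Synpo2l on the same library. With it left out, Ryr2 was at least 346-fold and Synpo2l at least 422-fold lower in adult than in fetal cells. Without adult replicate 3 the fitted adult minus fetal difference also moved from -8.68 to -9.40 for Pln and from -6.29 to -6.90 for Hrc, and both stayed called.

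The 4 tested energy genes all fell from fetal to neonatal cells, and again to adult cells. The shares of all genes called lower in these 2 steps were 18.0% and 31.8%. Fabp3, the fatty acid carrier of heart muscle, was at 339.5, 327 and 234 CPM in the fetal, 135, 129 and 130.4 CPM in the neonatal and 31.3, 22.1 and 32.3 CPM in the adult libraries. No libraries of different ages overlapped, and the falls were 2.28-fold to the neonatal (-1.19 ± 0.16, adjusted p = 0.000832) and 10.5-fold to the adult age (-3.39 ± 0.18, adjusted p = 3.45e-07). Fetal replicate 3 was the lowest fetal library for Fabp3 and the highest for Ckm. Eno3, the muscle enolase of glycolysis, was at 18.7, 17.6 and 23.4 CPM in the fetal, 12.5, 12 and 13 CPM in the neonatal and 6.12, 6.43 and 6.96 CPM in the adult libraries. Its change was the smallest of this group, -0.67 ± 0.13 to the neonatal age (adjusted p = 0.0038), and 32.7% of its fetal mean was left in adult cells. Mb, myoglobin, was at 11.7, 12.8 and 9.61 CPM in the fetal, 4.02, 4.92 and 4.66 CPM in the neonatal and 0 counts in each of the adult libraries, a fall of 2.51-fold to the neonatal age (-1.33 ± 0.18, adjusted p = 0.00186). Ckm, the cytosolic creatine kinase of muscle, was at 13.9, 16.7 and 19.3 CPM in the fetal, 5.56, 5.62 and 6.79 CPM in the neonatal and 0.229, 0.0722 and 0.0749 CPM in the adult libraries. It fell 2.78-fold without overlap (-1.48 ± 0.19, adjusted p = 0.000545). Each adult library had 1 to 3 counts of Ckm, and the ratio of fetal to adult CPM was 134 (95% exact interval 57.3 to 414, counting error only). Adult replicate 1 held 3 of the 5 adult counts, and without it the ratio was 227 (interval 62.6 to 1874). Ckmt2, its mitochondrial counterpart, stayed low throughout, at 0.594, 0.529 and 0.531 CPM in the fetal and 0.495, 0.418 and 0.518 CPM in the neonatal libraries, and had no adult count.

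Of the 5 membrane and other members, 4 fell by the neonatal age, beside 18.0% of all genes. Cav3, the caveolin of muscle membranes, was at 63, 62.7 and 59.6 CPM in the fetal, 31.6, 28.6 and 32.4 CPM in the neonatal and 1.91, 4.12 and 2.62 CPM in the adult libraries, a fall of 2-fold (-1.001 ± 0.15, adjusted p = 0.00144). Popdc2, a cAMP-binding membrane protein of heart muscle, was at 87.4, 99.7 and 98.7 CPM in the fetal, 36.6, 37.3 and 41.9 CPM in the neonatal and 5.28, 3.61 and 3.82 CPM in the adult libraries, and it fell 2.47-fold (-1.30 ± 0.11, adjusted p = 7.01e-05). For both, the ages did not overlap. Sh3bgr, a small SH3-binding protein of heart and skeletal muscle, was at 170.4, 181 and 165 CPM in the fetal, 62.4, 61.4 and 68.8 CPM in the neonatal and 0 counts in each of the adult libraries. Its neonatal level was 37.2% of the fetal mean (-1.43 ± 0.07, adjusted p = 3.18e-05), and with 0 adult counts it was at least 771-fold below fetal cells in the adult ones. Sgca, the alpha-sarcoglycan of the dystrophin complex, was at 12.2, 13.4 and 5.63 CPM in the fetal, 11.6, 14 and 14.9 CPM in the neonatal and 1.38, 3.25 and 2.55 CPM in the adult libraries. Fetal replicate 3 was the lowest of the fetal and neonatal libraries, and the ages overlapped (0.37 ± 0.33, adjusted p = 0.396). Without that library the difference was 0.08 (adjusted p = 0.786). Asb2, a ubiquitin ligase subunit of muscle, fell by 0.82 ± 0.17 on the log2 scale to the neonatal age (adjusted p = 0.00578).

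The members fell into 3 classes by their adult counts. For 11 members every adult library had at most 3 counts (Lmod2, Myot, Myom2, Csrp3, Smpx, Trdn, Sln, Mb, Ckm, Ckmt2 and Sh3bgr), and for 9 of them it had 0. Another 11 had an adult mean of at least 1 CPM, among them Atp2a2, Pdlim5, Nexn, Fabp3, Des and Hspb7, and the other 13 lay in between. Of the 33 members above 3 counts in every fetal library, 19 had an adult mean under 1% of the fetal one. That filter used the fetal libraries alone, which favours a lower adult level. The shares of all genes under these rules were not counted, so the class counts only describe the members. The summed level of 10 cardiac myosin and troponin genes was 7022 ± 847 CPM in fetal, 3568 ± 153 CPM in neonatal and 316 ± 5.22 CPM in adult cultures. Nearly all of the adult sum was Tnnt2, cardiac troponin T, at 303, 310.0 and 316 CPM, while Myh6, cardiac myosin, had at most 1 count in each adult library.

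The fall of most members between the fetal and neonatal age ran beside that of the cardiac myosins and troponins, 9 of 10 of which were also called lower. A second edgeR fit therefore took the summed counts of those 10 genes as the size of each of the 6 fetal and neonatal libraries, so that a gene falling in step with them shows no change. On this scale 84.2% of 11050 genes were called, 81.5% higher and 2.65% lower, and the median of all genes was 0.95. Of the 33 members tested, 18 were not called, 9 were higher (Myom2, Sgca, Pdlim5, Hrc, Atp2a2, Nexn, Casq2, Pln and Des) and 6 were lower (Ckm, Sh3bgr, Synpo2l, Casq1, Smpx and Popdc2). Their median log2 difference was 0.08. All neonatal libraries lay above all fetal ones for 12 of the 35 members and below them for 8, against 82.6% and 3.12% of all genes.

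**Figure D3:**
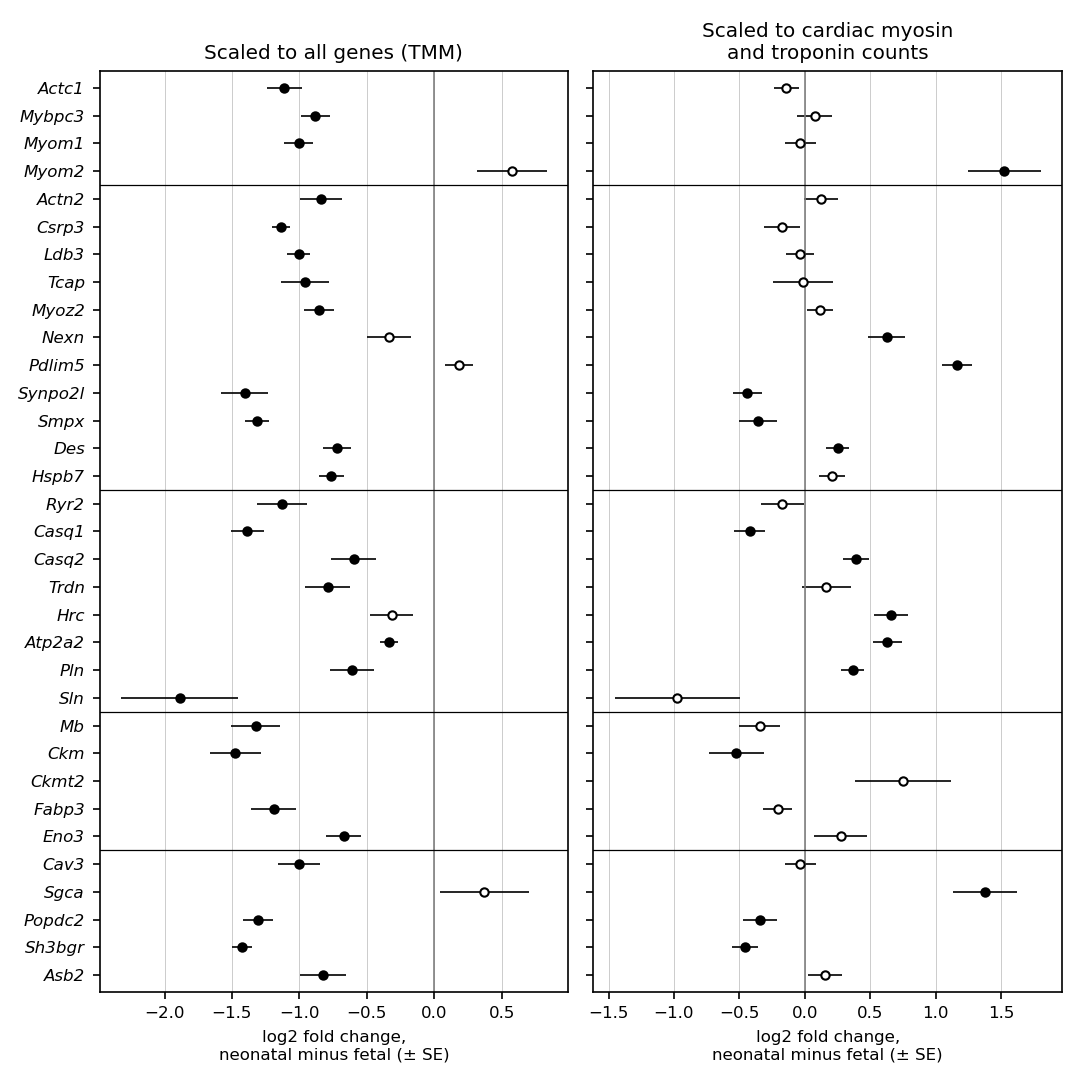
Log2 fold change from fetal to neonatal cells with its standard error for each tested member, by role, scaled to all genes (left, 9-library fit) and to the cardiac myosin and troponin counts (right, 6-library fit); filled circles have an adjusted p under 0.05 and open ones do not. Filled circles lie below 0 on the left and on both sides of 0 on the right.

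Of the 8 calcium handling members, 4 gained on the myosins and troponins and 1 lost, beside 81.5% of all genes called higher and 2.65% lower. The median of all genes on this scale was 0.95, above each of these 4 gains. Atp2a2, the pump, was at 117, 119 and 143 per 1000 reference counts in the fetal and 196, 202 and 189.7 in the neonatal libraries (0.63 ± 0.11, adjusted p = 0.000809). Hrc was at 1.93, 1.98 and 2.16 per 1000 reference counts in the fetal and 3.16, 3.13 and 3.27 in the neonatal libraries (0.66 ± 0.13, adjusted p = 0.00151). Casq2 was at 56.1, 59 and 48.6 per 1000 reference counts in the fetal and 69.9, 72.7 and 71.9 in the neonatal libraries (0.39 ± 0.10, adjusted p = 0.00742). In each case every neonatal library exceeded every fetal one. Pln likewise stood at 29.3, 29.8 and 29 per 1000 reference counts in the fetal and 36, 37.8 and 39.6 in the neonatal libraries (0.36 ± 0.09, adjusted p = 0.0051). Casq1 went the other way, with 13.8, 15.2 and 17.6 per 1000 reference counts in the fetal and 11, 11.4 and 12.3 in the neonatal libraries (-0.42 ± 0.12, adjusted p = 0.0105); Casq2 and Casq1 were thus called in opposite directions. The call of Casq1 was lost in 3 of 13 alternatives: with the median of ratios as the scale (-0.25, adjusted p = 0.0521), with Tnnt2 left out of the reference (-0.19, adjusted p = 0.162) and without neonatal replicate 1 (-0.39, adjusted p = 0.0505). Ryr2, Trdn and Sln were not called, at -0.17 ± 0.16, 0.17 ± 0.19 and -0.97 ± 0.48; without fetal replicate 3, Sln was at -0.31 and Trdn at 0.33, where DESeq2 gave an adjusted p of 0.0478 for Trdn and 0.47 for Sln.

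**Figure D4:**
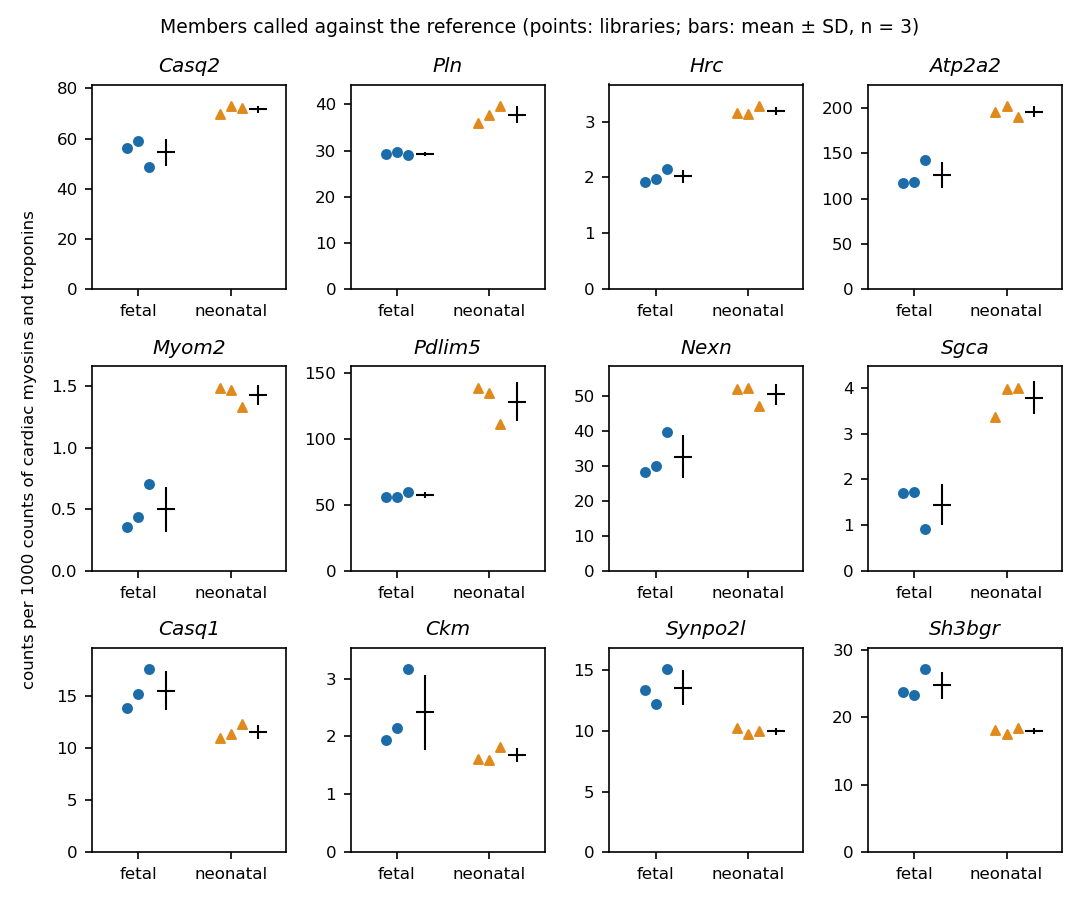
Counts per 1000 cardiac myosin and troponin counts in the fetal and neonatal libraries for 12 of the 15 members called on that scale; points are libraries and the crosses beside them are mean ± SD (n = 3), with every axis starting at 0. The 8 genes of the upper rows are higher in all 3 neonatal libraries and the 4 of the bottom row lower.

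The largest gains were those of Myom2, Sgca and Pdlim5. Myom2 had 0.353, 0.436 and 0.704 per 1000 reference counts in the fetal and 1.48, 1.47 and 1.33 in the neonatal libraries (1.52 ± 0.28, adjusted p = 0.0011). For Sgca the values were 1.7, 1.72 and 0.922 per 1000 reference counts in the fetal and 3.36, 3.98 and 4 in the neonatal libraries (1.38 ± 0.24, adjusted p = 0.000945), and without fetal replicate 3 the difference was 1.14 and DESeq2 still called it. Pdlim5 had 55.9, 56 and 60 per 1000 reference counts in the fetal and 139, 135 and 111 in the neonatal libraries (1.16 ± 0.11, adjusted p = 4.48e-05). None of these 3 genes overlapped between the ages. Nexn and Des, both also genes of smooth muscle, gained 0.63 ± 0.14 and 0.25 ± 0.09 (adjusted p = 0.00359 and 0.0251), and Des lost its call in every fit that left out 1 library except that without fetal replicate 3 (adjusted p 0.0589 to 0.10035 in the other 5). On the same scale 10 of 11 smooth muscle and mural markers and 9 of 10 fibroblast markers were called higher, beside 81.5% of all genes, and their part in these gains was not tested.

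The members lower against the reference differed by less than the 3 largest gains. Ckm had 1.93, 2.15 and 3.16 per 1000 reference counts in the fetal and 1.61, 1.6 and 1.82 in the neonatal libraries (-0.53 ± 0.21, adjusted p = 0.045), and fetal replicate 3 was its highest library. Sh3bgr had 23.7, 23.3 and 27.1 per 1000 reference counts in the fetal and 18.1, 17.5 and 18.4 in the neonatal libraries (-0.46 ± 0.10, adjusted p = 0.0029). Synpo2l differed by -0.44 ± 0.11, Smpx by -0.36 ± 0.14 and Popdc2 by -0.34 ± 0.13 (adjusted p = 0.00609, 0.0466 and 0.0355). These members had libraries that did not overlap, but the calls depended on the reference. Tnnt2 held more counts than any other reference gene and differed by -0.65 ± 0.10 between the ages on the scale of all genes, where the median of the 10 was -1.12. With Tnnt2 left out, a choice made after seeing the data, 0 members were lower and 16 higher. Of all genes 89.1% were then called, 97.8% of these calls being higher. The median of all genes was 1.19, against 0.95 with the full reference. With the median of the 10 genes' ratios as the scale, 2 members were lower and 13 higher. There 88.8% of all genes were called and their median was 1.13. Leaving out neonatal replicate 1, 2 or 3 left 2, 3 and 3 members lower, beside 76.5%, 77.1% and 78.2% of all genes called. Leaving out fetal replicate 3 gave 8 lower and 14 higher, but there the common dispersion fell from 0.0336 to 0.00365 and edgeR's prior degrees of freedom became infinite, so that each gene was given the same spread and the p-values are too small to be read. DESeq2 without that library, added after seeing the data, gave 6 members lower and 14 higher, beside 92.1% of all genes called. Ckm was then not called (-0.29, adjusted p = 0.0966). Atp2a2, Hrc, Pdlim5, Nexn, Myom2, Sgca, Casq2 and Pln were each called higher in all 13 alternatives run, the fit with infinite prior degrees of freedom among them, and Sh3bgr and Synpo2l were each called lower in 12 of the 13. Of 8 skeletal muscle markers tested against the reference, 4 were called lower and 2 higher, beside 2.65% and 81.5% of all genes. Their part in the members' lower calls was not tested. Among the 18 members not called were Actc1 (-0.14 ± 0.10), Myom1 (-0.03 ± 0.12), Ldb3 (-0.04 ± 0.11), Tcap (-0.01 ± 0.23), Cav3 (-0.03 ± 0.12) and Mybpc3 (0.08 ± 0.13); a missed threshold does not show that they moved in equal measure.

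The other genes of these pathways were counted in the same fits, in which 18.0% of all genes were lower and 18.3% higher in neonatal than in fetal cells. Of 27 other Z-disc and sarcomere genes tested, 13 fell and 7 rose from fetal to neonatal cells, with a median of -0.23. The 2 with the smallest adjusted p were Flnc, filamin C, at -0.84 ± 0.07 (adjusted p = 5.36e-05) and Unc45b, a myosin chaperone, at -1.41 ± 0.12 (adjusted p = 5.9e-05). Of 22 other calcium handling genes, 4 fell and 4 rose, with a median of -0.11, which is near the shares of all genes in both directions. Cacna1c, the L-type calcium channel that triggers release, fell by 1.03 ± 0.11 (adjusted p = 0.000247), and Stim1, the calcium sensor of store-operated entry in most cells, rose by 0.76 ± 0.11 (adjusted p = 0.00119). Of 14 other muscle energy genes tested, 8 fell and 2 rose; Cox6a2, a heart and muscle form of a cytochrome oxidase subunit, was at -0.83 ± 0.12 and Pygm, muscle glycogen phosphorylase, at -0.70 ± 0.13 (adjusted p = 0.00105 and 0.0035). Between fetal and adult cells, 19 fell and 3 rose of the other Z-disc genes, 10 and 7 of the other calcium genes and 10 and 4 of the other energy genes, where 35.5% of all genes were lower and 34.9% higher.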

How the data were processed

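RNA from cultures of fetal, neonatal and adult rat cardiac fibroblasts was sequenced, with 3 libraries per age, and each library was taken as 1 sample on the labels' word. Per the file headers, the authors made the deposited gene counts with featureCounts 1.6.3 on an rn6 annotation, and the recorded options set no strand, so reads of overlapping or antisense genes cannot be told apart. The submitters' processing notes name Trimmomatic 0.39, STAR 2.5.2b and Subread 1.6.3. A deposited table of normalized values was not used here. Exon lengths came from the count table.

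Counts were fitted with edgeR 4.0.16 (R 4.3.3; limma 3.58.1), with TMM, filterByExpr and robust quasi-likelihood tests, to all 9 libraries, and p-values were adjusted by Benjamini-Hochberg over all genes tested. A second fit to the 6 fetal and neonatal libraries used the summed counts of Myh6, Myh7, Myl2, Myl3, Myl4, Myl7, Tnnt2, Tnni3, Tnni1 and Tnnc1 as library size. Standard errors are the fitted log2 difference divided by the square root of the quasi-likelihood F. The scripts were tested on simulated data with 200 of 11337 genes changed. In neonatal against fetal cells 76% of changes of log2 1 and 90% of log2 2 were recovered, with 12 false among 178 calls. Against the reference these were 64% and 86%, with 12 false among 162 calls. In that simulation no reference gene changed and few other genes did, whereas 84.2% of genes were called on this scale in the data. Its shares may therefore not hold for the fit as used. The adult comparisons recovered 73% of changes of log2 1. DESeq2 1.42.0, other scalings, filters and thresholds and the omission of each library were alternatives. At library totals of 13392825 to 22850491, 1 count was worth 0.0441 to 0.0765 CPM; intervals and floors cover counting error only, since reads are not independent molecules.

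The members and lists were chosen with earlier results of these data known. Values per library are given for the 3 members of each role with the highest mean CPM per kilobase before adulthood, those with an adult mean of at least 1 CPM, and those called higher at any age or called against the reference, plus a few chosen after their values were seen (Csrp3, Ryr2, Sln and Ckmt2). Of the other Z-disc, calcium handling and muscle energy lists, the 2 genes with the smallest adjusted p in neonatal against fetal cells are named. For the reference and marker lists this was not done. Between libraries of the same age the counts differed by more than counting error in every pair, but by unequal amounts. Chi-square per degree of freedom was 2.05 to 2.76 between neonatal libraries and 3.94 between fetal replicates 1 and 2. It was 90.0 and 97.3 between these and fetal replicate 3, and 6.76 to 43.0 between adult libraries. The deviations of same-numbered libraries of different ages from their age means correlated at -0.0623 to 0.0903. Those of differently numbered libraries correlated at -0.0811 to 0.0805. No pairing by number was seen, but with 3 libraries per age a weak one could be missed.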

Additional observations from a re-analysis of the deposited data

How the results depend on the processing

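No member changed direction or side of the threshold in adult against fetal or adult against neonatal cells under any of the 15 alternatives run for each. In neonatal against fetal cells 493 of 512 gene results under 16 alternatives were unchanged, 14 lost and 5 gained the call, and none reversed. Leaving out 1 library gave 24 to 28 members called and 0 to 1 called higher, the 1 being Myom2 without fetal replicate 3; DESeq2 without that library also gave 1. Library size alone in place of TMM moved the median of all genes to -0.18, with 29.0% of all calls higher against 50.4% with TMM, and gave 29 members lower. The replicate block, by numbers for which no pairing was seen, gave 27, 32 and 32 members called in the 3 comparisons, and 12 called with 4 lower against the reference. Against the reference, 342 of 429 gene results under 13 alternatives were unchanged, 31 lost and 27 gained the call, and 29 reversed. Of all genes, 84.2% were called in the main fit, 88.8% with the median of ratios and 89.1% with Tnnt2 left out. DESeq2 without fetal replicate 3 called 92.1%. With the median of ratios 2 members were lower, and the reversed values were 0.031 for Actc1, 0.14 for Myom1, 0.0025 for Csrp3, 0.14 for Ldb3, 0.17 for Tcap, 0.0076 for Ryr2 and 0.14 for Cav3. With Tnnt2 left out 0 were lower and 16 higher, and the reversed values were 0.092 for Actc1, 0.20 for Myom1, 0.061 for Csrp3, 0.20 for Ldb3, 0.22 for Tcap, 0.065 for Ryr2, 0.028 for Fabp3 and 0.20 for Cav3. Tcap was at 0.022 with the replicate block. DESeq2 without fetal replicate 3 gave 14 higher and reversed Myom1 (0.034), Ldb3 (0.045), Tcap (0.22), Ryr2 (0.013) and Cav3 (0.040). Leaving out 1 library in edgeR gave 2 to 8 lower and 8 to 14 higher, where the highest of each come from the fit without fetal replicate 3, whose prior degrees of freedom were infinite and whose p-values are too small, with -0.099 to 0.04 for Cav3, -0.088 to 0.045 for Ldb3, -0.12 to 0.034 for Myom1, -0.30 to 0.013 for Ryr2 and -0.19 to 0.23 for Tcap. The cause was not tested. Lmod2, Myot and Ckmt2 had too few counts to be tested in the fit of all 9 libraries, and whether depth or annotation sets this was not tested.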
